A study of Mus musculus with 9 samples.

Results

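The 10 genes followed here in whole mouse retina mark disease-associated microglia: Trem2, Tyrobp, Clec7a, Axl, Itgax, Gpnmb, Lgals3, Spp1, Cst7 and Lpl. They were chosen by symbol, all 10 were found among the 22337 genes of the table, and all 10 had enough counts to be tested in each comparison. The retinas came from WT mice of the C57 BL/6J strain that received no injection, and from rd10 mice, which carry a mutation of the rod phosphodiesterase gene Pde6b and lose their photoreceptors. The rd10 mice received 1 µl per eye of either normal saline (NS) or extracellular vesicles of mesenchymal stem cells (MSC-EVs) into the vitreous on postnatal days (P) 14 and 21, and RNA was taken at P28. Each group had 3 libraries, and the WT and rd10 groups differ in strain, mutation and injection together, which cannot be told apart. Nothing in the labels says whether the 3 libraries of a group came from separate animals, so the p-values measure the spread between these libraries.

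Microglia are the resident macrophages of the retina. When neurons degenerate they leave their homeostatic state, and in many disease models they turn on a shared set of genes for lipid uptake, lysosomal digestion and phagocytosis. TREM2, a surface receptor for lipids and lipoproteins, signals through the adaptor TYROBP, and part of the set, including Cst7, Lpl, Itgax, Clec7a and Axl, is known to need TREM2. In retinal degeneration such cells gather near dying photoreceptors. Several of the 10 genes are not private to microglia: Spp1 is also made by some retinal ganglion cells, Gpnmb by pigmented cells, and Axl and Lpl by other cell types.

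Library totals ran from 19491717 to 62532343 counts, with MSC-EVs replicate 3 the deepest. Pde6b fell in NS-treated rd10 retinas (log2 fold change against WT -2.23, edgeR quasi-likelihood adjusted p = 3.02e-08), as did 9 of 10 rod photoreceptor genes, while the rd10 mutation itself cannot be read from gene counts. The labels give no sex. Genes of the Y chromosome had 4379 and 4421 counts in MSC-EVs replicates 1 and 2 and 7 to 23 in each of the other 7 libraries. Sex and treatment are therefore partly mixed among the rd10 libraries, and sex and group between MSC-EVs and WT. Results of MSC-EVs against NS and against WT are given with and without those libraries.

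The genes lie on 7 chromosomes in GRCm38. Trem2 spans chr17:48346401-48354147 on the plus strand, Tyrobp chr7:30413760-30417585 on the plus strand, Clec7a chr6:129461591-129472779 on the minus strand, Axl chr7:25757273-25788705 on the minus strand and Itgax chr7:128129547-128150657 on the plus strand. Gpnmb spans chr6:49036546-49070929, Lgals3 chr14:47367751-47386160, Spp1 chr5:104435118-104441050, Cst7 chr2:150570415-150578944 and Lpl chr8:68880491-68907448, all on the plus strand. GENCODE labels Clec7a a polymorphic pseudogene and the other 9 protein coding. The values of a pair of genes carry an uncertainty from shared sequence: 11.6% of the 50-base stretches of Spp1 exons also occur in the overlapping same-strand gene Gm42793, and 8.02% of those of Itgax occur in its neighbor Itgad, which itself had 0 to 3 counts in each library.

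RefSeq promoters (250 bases before to 50 after the transcription start, GRCm38.p6) were given for 8 of the 10 genes; Tyrobp and Lpl were not among them. The letters TGANTCA, a loose form of the motif of AP-1 factors with N for any base, occurred in 4 of the 8 (Trem2, Cst7, Itgax and Gpnmb). The 8 genes had 10 promoters, and 4 of these held the letters, against 7.81% of all 32851 promoters. The letters GGAAGT, the core bound by PU.1 and other ETS factors, occurred in 3 of the 8 (Cst7, Itgax and Spp1). That was 3 of the 10 promoters, against 23.8% of all promoters. GAAANNGAA, of interferon-stimulated elements, occurred in Spp1 alone of the 8, in 1 of the 10 promoters (8.56% of all promoters). The E-box CACGTG (7.15%) and the NF-kB letters GGGANTTCC (1.68%) occurred in none of the 8. Both strands were searched. These stretches of 30 bases are shown because they put the AP-1 and ETS letters of genes that rose together side by side. Capitals mark the match, all stretches are read 5′ to 3′ on the plus strand, and the first base of the RefSeq transcript is position 1.
Trem2 AP-1, chr17:48346381-48346410: ttctccctcctTGAATCAcagcgcctaccc
Cst7 AP-1, chr2:150570398-150570427: tctggttaaaaTGATTCAgcaagaaaccac
Itgax AP-1, chr7:128129483-128129512: cccacctcctcTGAGTCAcgctgacaactt
Gpnmb AP-1, chr6:49036515-49036544: ccaggggcaagTGACTCAtgagcacgagtt
Cst7 ETS, chr2:150570341-150570370: aacttctttaaaGGAAGTggttgctcttgt
Itgax ETS, chr7:128129417-128129446: caactcttccctGGAAGTgtgtaggctgcc
Itgax ETS, minus-strand match, chr7:128129497-128129526: gtcacgctgacaACTTCCctcctggtctct
Spp1 ETS, chr5:104434988-104435017: aaaaccagaggaGGAAGTgtaggagcaggt
The AP-1 letters of Trem2 covered positions -9 to -3, those of Cst7 -6 to 1, those of Gpnmb 9 to 15 and those of Itgax -56 to -50. The GENCODE start of Gpnmb, chr6:49036546, lies after its stretch, so by that start the Gpnmb letters lie before the transcript. A match is a run of letters, and binding was not measured in these samples.

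The first comparison asked how the genes differ between degenerating and healthy retina. Of the 10 genes, 9 rose in NS-treated rd10 retinas, by 3.85-fold for Axl to a pooled count ratio of 100.3 for Cst7, and Lpl was higher by 1.885-fold, under the limit used for a call. A gene was called when its adjusted p in edgeR's quasi-likelihood test was under 0.05 and its absolute log2 fold change at least 1, and by that rule 9.16% of the 14644 genes tested were called higher and 3.56% lower. All 10 had an adjusted p under 0.05 (31.2% of genes tested were higher by that rule), and for all 10 every NS library lay above every WT library (33.7% of genes tested). The median log2 fold change of the 10 genes was 3.79, beside 0.0053 over all genes tested. In bulk retina, more cells of a type and more RNA per cell cannot be told apart. Levels are also relative to the other RNA of a library. The summed level of 10 rod photoreceptor genes went from 77560 to 83190 CPM (counts scaled to library size) in WT to 15550 to 22370 CPM in NS. The median log2 fold change was 0.68 for Müller glia genes, 0.49 for endothelial, 0.30 for ganglion cell and -0.18 for cone photoreceptor genes. The part of the rod loss in the rise of the 10 genes was not tested.

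**Figure D1:**
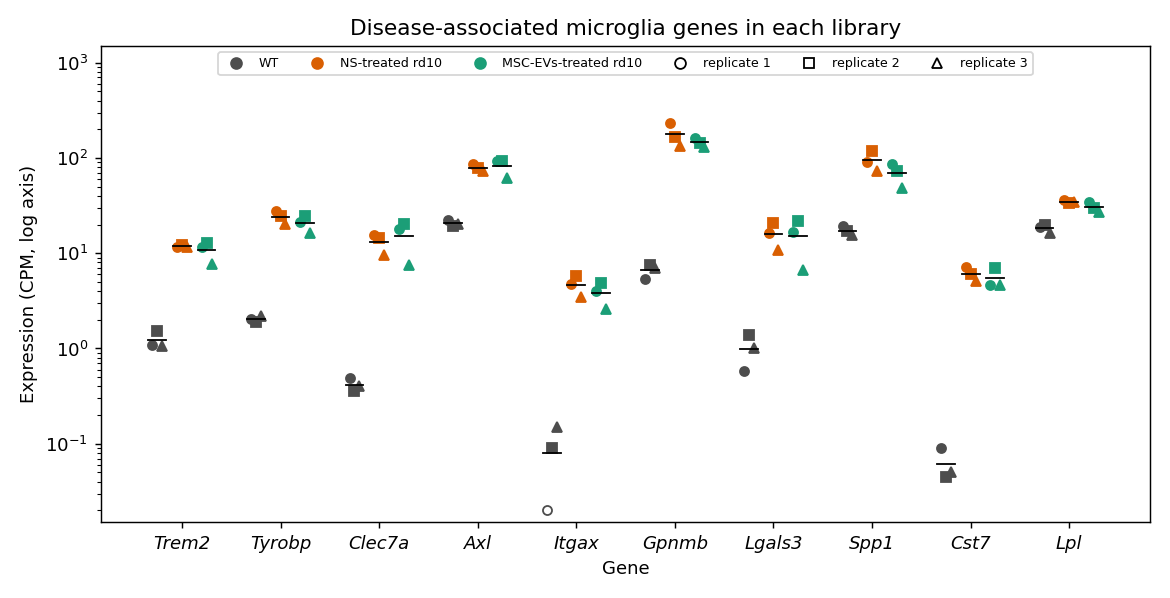
Expression of each gene in the 9 libraries, as CPM (counts scaled to library size) on a log axis; colors are groups, marker shapes are replicates, short bars are group means, and the open circle for Itgax is a count of 0 drawn at 0.02 CPM. For all 10 genes the 3 WT libraries lie below all rd10 libraries, and the NS and MSC-EVs libraries overlap.

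Among the receptors, Trem2 was measured at 1.08, 1.52 and 1.05 CPM, that is counts scaled to the same library size, in WT and at 11.6, 12.3 and 11.7 CPM in NS. The 3 NS libraries were nearly level and stood 9.67-fold above the WT libraries (log2 fold change 3.27, standard error (SE) 0.17, edgeR adjusted p = 1.76e-08). Tyrobp, its signalling adaptor, was at 2.02, 1.88 and 2.20 CPM in WT and at 27.8, 24.7 and 20.1 CPM in NS. It stood higher in NS by 3.58 on the log2 scale (SE 0.15, edgeR adjusted p = 4.1e-09), and NS replicate 3 was the lowest of its group. Receptor and adaptor were each other's nearest neighbor among the 10 genes over the 9 libraries, with a root mean square difference of 0.251 log2 units between their centered profiles.

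Clec7a encodes dectin-1, a lectin receptor that signals through SYK. It was at 0.493, 0.358 and 0.400 CPM in WT, which stand for 11, 8 and 8 counts, and at 15.6, 14.4 and 9.66 CPM in NS. Even the lowest NS library was more than an order of magnitude above WT (log2 fold change 4.97, SE 0.26, edgeR adjusted p = 2e-08). Axl, a receptor tyrosine kinase that takes part in the clearance of dying cells, was already well expressed in WT at 22.2, 19.3 and 20.4 CPM. It reached 86.0, 78.8 and 73.4 CPM in NS, the smallest log2 fold change of the 9 that were called (1.94, SE 0.08, edgeR adjusted p = 3.32e-09). Itgax encodes the integrin subunit CD11c, a marker of dendritic cells as well as of activated microglia. The 3 WT libraries held 0, 2 and 3 of its counts and the NS libraries 142, 118 and 76. With the counts of each group pooled and scaled to depth, the NS to WT ratio was 60.4 (95% interval 25.6 to 187, counting error only), so Itgax went from the edge of detection to 4.80, 5.78 and 3.48 CPM.

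Gpnmb, a lysosomal and cell surface glycoprotein of phagocytes and pigmented cells, was the most abundant of the 10 genes by CPM in rd10. It was at 5.34, 7.56 and 6.96 CPM in WT and at 233, 166 and 133 CPM in NS. The NS libraries differed from each other more than for most of the 10 genes and still lay far above WT (log2 fold change 4.75, SE 0.31, edgeR adjusted p = 0.00012). The summed level of 9 pigment epithelium and melanocyte genes was also the highest in NS replicate 1, at 265.9 CPM. It was 68.3 CPM in NS replicate 2 and 181.1 CPM in NS replicate 3, against 39.8 to 70.9 CPM in WT. Of the 9 pigment cell genes, 4 were called higher in NS against WT and 6 had every NS library above every WT library. Tyrp1, an enzyme of melanin synthesis, was at 2.38, 3.40 and 5.10 CPM in WT and at 24.6, 5.93 and 15.5 CPM in NS, whereas Rpe65, of the visual cycle, was at 6.01, 11.6 and 7.51 CPM in WT and at 19.6, 3.33 and 13.9 CPM in NS. The part of pigmented cells in the Gpnmb values was not tested.

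Lgals3, or galectin-3, a lectin that binds damaged lysosomes and serves as an opsonin, was at 0.583, 1.39 and 1.00 CPM in WT and at 16.2, 20.8 and 10.9 CPM in NS. Its spread was wide in both groups, and the groups remained apart (log2 fold change 4.0, SE 0.32, edgeR adjusted p = 7.04e-06). Spp1 encodes osteopontin, a secreted ligand of integrins and CD44. It was at 19.2, 17.1 and 15.5 CPM in WT and at 91.7, 118 and 72.9 CPM in NS, higher by 2.44 on the log2 scale (SE 0.20, edgeR adjusted p = 6.51e-05). Cst7, or cystatin F, an inhibitor of lysosomal cysteine proteases, was found with 2, 1 and 1 counts in the WT libraries, against 210, 124 and 112 in NS. Its pooled ratio was 100.3 (95% interval 38.9 to 369.6, counting error only), and it was the 21st largest of all fitted rises.

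Lpl encodes lipoprotein lipase, which frees fatty acids from lipoproteins, and it behaved apart from the other 9. It was at 19.1, 19.7 and 16.4 CPM in WT and at 36.4, 33.5 and 34.4 CPM in NS. The groups did not overlap, and the log2 fold change of 0.91 (95% interval 0.72 to 1.11, edgeR adjusted p = 3.07e-06) stood close to the limit of 1. Its profile was the farthest of the 10 from their mean, at 1.38 log2 units against 0.18 for Tyrobp, the nearest.

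**Figure D2:**
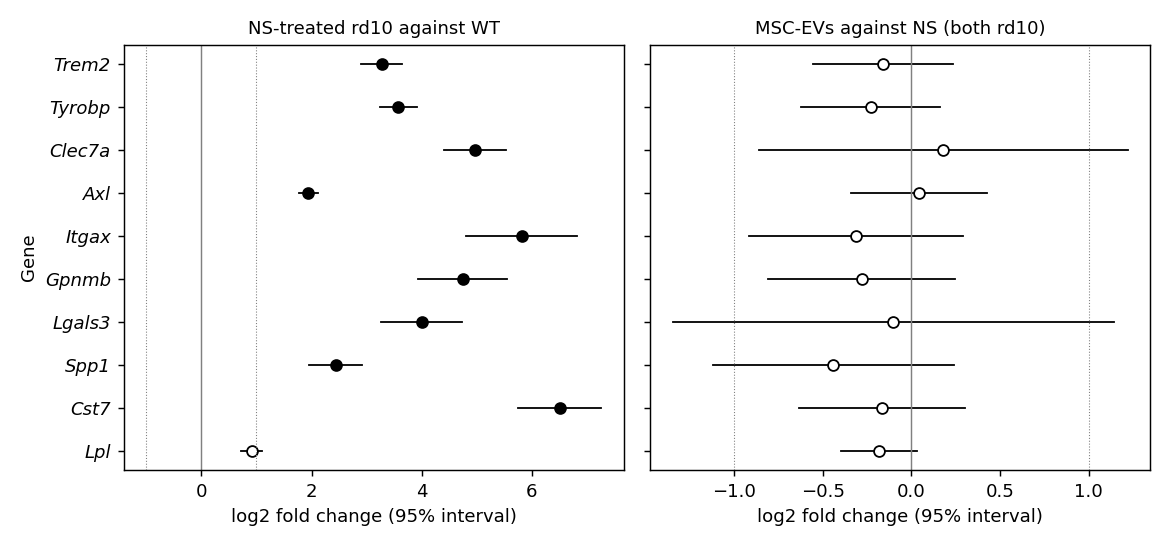
Log2 fold change of each gene in NS-treated rd10 against WT and in MSC-EVs-treated against NS-treated rd10, with 95% intervals; filled points were called, and the dotted lines mark a log2 fold change of 1 in either direction. On the left 9 genes are called, and on the right all 10 intervals include 0; the horizontal scales differ.

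Levels of different genes were set side by side per transcript length, as FPKM. In WT, Spp1 was the highest at 11.3 ± 1.24 FPKM (mean ± SD, n = 3), followed by Axl at 4.54 ± 0.416 and Lpl at 4.14 ± 0.424, whose libraries overlapped. Itgax was the lowest, at 0.0167 ± 0.0153 FPKM. In NS the order changed: Spp1 (69.8 ± 16.5), Gpnmb (57.5 ± 17.5) and Tyrobp (42.5 ± 6.23) led. Gpnmb overlapped with both of the others, and every Spp1 library lay above every Tyrobp library. Axl (19.6 ± 1.48), Lgals3 (14.9 ± 4.80) and Trem2 (11.5 ± 0.406) followed, and Itgax stayed the lowest at 1.21 ± 0.301. Gpnmb took 6.93% of the summed FPKM of the 10 genes in WT and 23.7% in NS, while Spp1 took 41.2% and 29%.

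The rise of the 10 genes was then set against that of microglial genes in general. Of 12 homeostatic microglial genes, 10 rose in NS, with a median log2 fold change of 1.45; P2ry12, the purinergic receptor of resting microglia, was at 1.24, Tmem119 at 1.49, Cx3cr1 at 1.08 and Csf1r, the CSF-1 receptor, at 2.44. Of 13 genes shared by microglia and other macrophages, 13 rose, with a median of 3.80; Aif1, which encodes Iba1, was at 3.80, Itgam at 3.03, the lysosomal gene Cd68 at 4.37 and Adgre1, which encodes F4/80, at 4.21. The summed homeostatic level went from 78.7 to 80.9 CPM in WT to 285.8 to 344.1 CPM in NS, and the summed shared level from 40.6 to 43.6 CPM to 434.7 to 553.4 CPM.

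Divided by the geometric mean of the homeostatic list in the same library, 9 of the 10 genes were still higher in every NS library than in every WT library (3.2% of all genes tested), and Lpl was lower in every one (91.5% of all genes tested). The median of this relative log2 difference was 2.09. It was 1.59 for Trem2 and 1.85 for Tyrobp, 4.59 for Cst7 and 3.21 for Clec7a, but 0.24 for Axl and 0.72 for Spp1. Divided by the list shared with macrophages, the picture was mixed. Cst7 (2.62), Itgax (2.38), Clec7a (1.23) and Gpnmb (1.04) were higher with no overlap between groups (0.505% of all genes tested), and Lpl (-2.76), Axl (-1.73) and Spp1 (-1.25) were lower with no overlap (97.6%). Trem2 (-0.39), Tyrobp (-0.12) and Lgals3 (0.34) overlapped between the groups, and the median over the 10 was 0.11. Cst7, Itgax, Clec7a and Gpnmb were thus the genes that lay higher in NS relative to both lists, and the ratios of Cst7 and Itgax rest on at most 3 counts per WT library and on the 0.5 counts added before taking logs.

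**Figure D3:**
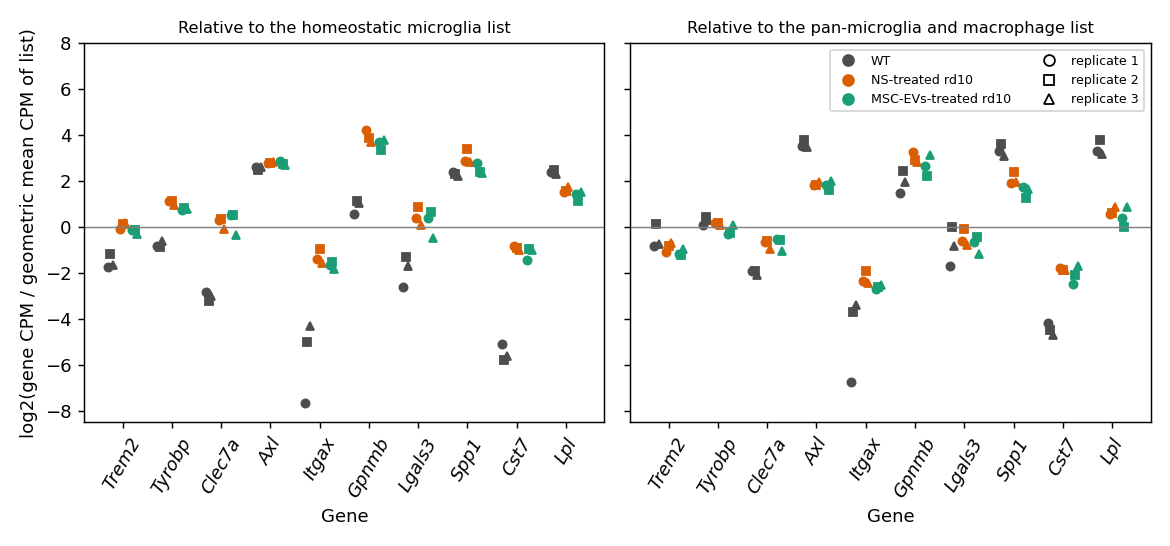
Level of each gene in each library relative to the geometric mean of 12 homeostatic microglial genes (left) and of 13 genes shared by microglia and macrophages (right), as log2 ratios; colors are groups and marker shapes replicates. Against the homeostatic list 9 genes lie higher in NS than in WT, and against the shared list 4 do.

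Other leukocytes carry some of the 10 genes. Of 10 infiltrating monocyte and neutrophil genes, 4 had enough counts to be tested and all 4 rose; Ccr2, the chemokine receptor of inflammatory monocytes, rose from 1, 1 and 0 counts in the WT libraries to 55, 25 and 15 in NS. The list summed to 0.150 to 0.313 CPM in WT and 5.36 to 15.5 CPM in NS, and of the neutrophil genes, S100a8 had 0 counts in each WT library and 0, 7 and 6 in NS, and S100a9 had 0 in each WT library and 9, 2 and 5 in NS. Ly6g, chosen after its values were seen, went from 2, 2 and 0 counts in the WT libraries to 0 in each NS library. Of 8 border-associated macrophage genes, 4 were tested and 3 rose, Mrc1 (CD206) among them with a log2 fold change of 3.99. The other tested gene, Lyve1, was lower in every NS library than in every WT library. Its log2 fold change of -0.303 (edgeR adjusted p = 0.0176) was under the limit for a call. The list summed to 18.7 to 19.4 CPM in WT and 19.1 to 26.7 CPM in NS. Most of that sum was Lyve1, with a mean of 18.7 CPM in WT and 15.1 CPM in NS. Of 10 T, NK and dendritic cell genes, 4 were tested and Cd8a rose (1.23), while the dendritic cell genes Flt3 and Zbtb46 had log2 fold changes of 0.38 and 0.31 and were not called. Xcr1 and Ccr7, also found on dendritic cells, were chosen after their values were seen. Xcr1 was higher in NS by 1.02 on the log2 scale (edgeR adjusted p = 0.108), and Ccr7, with too few counts to be tested, went from 1, 0 and 0 counts in the WT libraries to 27, 13 and 6 in NS. The list summed to 11.9 to 13.4 CPM in WT and 17.03 to 22.24 CPM in NS. The part of these cells in the rise of the 10 genes was not tested.

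Around the receptors, 11 of the 13 tested genes of TREM2-TYROBP and CLEC7A signalling rose, with a median log2 fold change of 1.93. The kinase Syk, which both receptors use, was at 2.62, the phospholipase Plcg2 at 1.42 and the phosphatase Inpp5d at 2.56. Of the other 5 genes of the TREM family, 2 were tested and both rose: Treml2 went from 0, 1 and 7 counts in the WT libraries to 49, 11 and 28 in NS, and Trem1, a receptor that amplifies inflammation on myeloid cells, had 0 in each WT library and 14, 13 and 11 in NS. Among the relatives and ligands of AXL, the receptor Mertk (1.14) and the ligand Pros1 (1.956) rose, Tyro3 was at 0.29 without passing the test, and the ligand Gas6 had a log2 fold change of -0.54, with an edgeR adjusted p of 3.68e-06, under the limit for a call. AXL binds GAS6 far more strongly than PROS1.

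Around the secreted genes, 6 of 9 integrin partners and osteopontin receptors rose (median 1.27). Itgb2, the beta subunit that pairs with CD11c, was at 3.69, Cd44 at 3.13 and Itgav at 1.23, and Itgb3 at 1.04 missed the adjusted threshold. Of 7 cystatins and their target cathepsins, 3 rose (median 0.56); Ctsc, which cystatin F inhibits, was at 1.80, while Cst3, the common cystatin C, was at -0.47 and not called. Of 5 tested galectins 3 rose (median 1.14), with Lgals9 at 3.27 and Lgals3bp, which binds galectin-3, at 3.34. Of 10 tested partners of lipoprotein lipase and lipid handling genes, 3 rose (median 0.27), the lipase inhibitor Angptl4 (1.06) among them, while Cd36, a fatty acid receptor, was at 0.02 and Lmf1, which matures the lipase, at -0.05. None of 3 tested MITF and TFE factors, regulators of lysosomal genes and of Gpnmb, was called: Mitf was at 0.27, Tfeb at 0.53 and Tfe3 at 0.29, the latter pair with an adjusted p under 0.05.

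A wider list of 24 further disease-associated microglia genes gave 14 that rose of 21 tested, with a median log2 fold change of 1.39. Apoe, a ligand of TREM2, was at 2.10, the growth factor Csf1 at 1.56, the tetraspanin Cd9 at 1.55 and the protease Ctsl at 1.14. The genes outside the set whose profile over the 9 libraries lay nearest to the mean of the 10 were B2m (0.117 log2 units), H2-K1 (0.177), Cd300c2 (0.19), C1qb (0.192) and Ifitm3 (0.192). B2m, the light chain of class I molecules, is itself on the wider list, and it was at 21.4, 24.1 and 21.3 CPM in WT, 373, 308 and 262 CPM in NS and 348, 377 and 204 CPM in MSC-EVs. Likeness here means the same ups and downs over the same 9 libraries, which is dominated by the step from WT to rd10.

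The second comparison asked whether MSC-EVs changed these genes in rd10. None of the 10 was called between MSC-EVs and NS, where 0.061% of the 14765 genes tested were called in either direction by edgeR, and none of the 10 had an unadjusted p under 0.05 (20.2% of genes tested). DESeq2 and edgeR's exact test also called 0 of the 10, and for all 10 the libraries of the groups overlapped (26.2% of genes tested did not). The median log2 fold change was -0.17, beside -0.0016 over all genes, and 2 of 10 were above 0 (49.6% of genes tested). Of 173 tested genes in the surrounding lists none was called by edgeR's quasi-likelihood test or by DESeq2, 29 had an unadjusted p under 0.05, and edgeR's exact test called 1 gene of the TREM family and 1 pigment cell gene; Cd44 (0.62), Itga4 (0.51) and Cd33 (0.71), of which Itga4 and Cd33 were chosen after their values were seen, had adjusted p-values of 0.046, 0.0401 and 0.0497 under a log2 fold change of 1.

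Lpl had the smallest p of the 10. It was at 34.2, 30.1 and 27.4 CPM in MSC-EVs, and its log2 fold change of -0.18 had a 95% interval of -0.40 to 0.03 (edgeR adjusted p = 0.322). Spp1, at 86.9, 72.9 and 48.5 CPM, had the largest difference, -0.44 (95% interval -1.12 to 0.24). Both intervals include 0, and that of Spp1 includes -1 as well.

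Trem2 was at 11.5, 12.8 and 7.73 CPM in MSC-EVs (log2 fold change -0.16, 95% interval -0.56 to 0.24) and Tyrobp at 21.2, 24.8 and 16.2 CPM (-0.23, -0.62 to 0.16). In both, replicates 1 and 2 lay within or near the NS range and replicate 3 below it. For Trem2, replicate 2 lay just above every NS library. Gpnmb was at 163, 142 and 132 CPM (-0.28, -0.81 to 0.24), Cst7 at 4.68, 7.04 and 4.66 CPM (-0.17, -0.63 to 0.30) and Itgax at 3.97, 4.87 and 2.61 CPM (-0.31, -0.91 to 0.29). Beside Gpnmb, none of the 9 pigment cell genes had a log2 fold change above 0, with a median of -1.01; 3 had every MSC-EVs library below every NS library, 3 had an unadjusted p under 0.05 and none was called by the quasi-likelihood test, and their part in the Gpnmb value was not tested. For Trem2, Tyrobp, Gpnmb, Cst7 and Itgax the intervals leave out a log2 change of 1 in either direction.

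Clec7a, Axl and Lgals3, like Trem2, had MSC-EVs libraries on both sides of NS. Clec7a was at 18.1, 20.2 and 7.45 CPM, with replicates 1 and 2 above every NS library and replicate 3 below every one (0.18, 95% interval -0.86 to 1.22). Axl showed the same split, at 91.9, 92.6 and 60.9 CPM (0.04, -0.34 to 0.42). Lgals3, at 16.6, 22.02 and 6.70 CPM, had the widest interval of the 10, -1.35 to 1.14 around -0.10.

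MSC-EVs replicate 3 thus stood apart within its group. It was the lowest MSC-EVs library for all 10 genes (35% of genes tested) and below every NS library for all 10 (33.8% of genes tested). It lay below the mean of replicates 1 and 2 by 65.3% for Lgals3, 61.1% for Clec7a, 40.9% for Itgax, 39.3% for Spp1 and 36.5% for Trem2, and by 13.7% for Gpnmb and 14.7% for Lpl. The same library had the greatest depth and, unlike the other MSC-EVs libraries, almost no counts of Y-linked genes. Its summed homeostatic microglial level was 231.5 CPM, against 329.8 and 384.6 CPM in replicates 1 and 2, its summed shared macrophage level was 382.8 CPM against 561.1 and 687.2 CPM, and its monocyte and neutrophil sum was 2.91 CPM against 21.3 and 16.8 CPM. In NS, replicate 3 was the lowest library for 8 of the 10 genes, and the share over all genes was not counted.

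**Figure D4:**
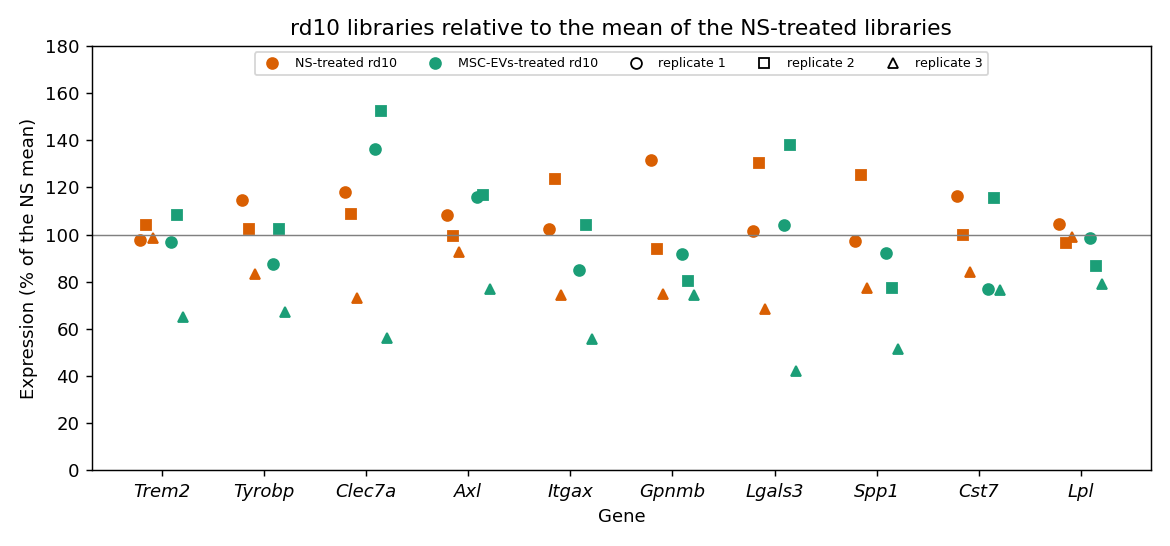
Expression of each gene in the 6 rd10 libraries as a percent of the mean of the 3 NS libraries, on a linear axis; colors are groups and marker shapes replicates. MSC-EVs replicate 3 (triangles) is the lowest MSC-EVs library for all 10 genes. The mean of MSC-EVs replicates 1 and 2 lies above the NS mean for 4 of the 10 genes. For Gpnmb, Spp1 and Lpl both of these replicates lie below the NS mean.

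When Y-linked expression entered the fit as a covariate, the log2 fold changes of all 10 genes were negative. They ran from -0.32 for Lpl to -1.25 for Lgals3, with a median of -0.58. All 3 NS libraries had few Y-linked counts, like MSC-EVs replicate 3. The group difference in this fit therefore rests mainly on that library against NS, as in the next fit. Of the 10, 8 then had an unadjusted p under 0.05 (7.88% of genes tested were lower by that rule), and none was called, the smallest edgeR adjusted p being 0.108. Without both MSC-EVs libraries that carried Y-linked counts, an alternative added once the data had been seen, the comparison rests on MSC-EVs replicate 3 alone against 3 NS libraries, assumed to vary as they do. The median was then -0.59, 8 of 10 had an unadjusted p under 0.05 (8.57%), and the smallest adjusted p was 0.105, for Trem2. Without MSC-EVs replicate 3 the median was -0.07, 4 of 10 were above 0, and Clec7a was at 0.53 and Axl at 0.22. Again 0 of 10 were called. In that run 2 of the 10 had an unadjusted p under 0.05 (2793 of 14939 genes tested), and the smallest edgeR adjusted p was 0.197. Since the library with few Y-linked counts is also the deepest and a single one, sex, library and treatment cannot be told apart here.

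Relative to the homeostatic list, 9 of the 10 genes had a lower mean in MSC-EVs than in NS, the exception being Clec7a at 0.04, with a median log2 difference of -0.25. Trem2 (-0.25, by a narrow gap), Tyrobp (-0.30) and Spp1 (-0.51) were lower with no overlap between the groups (4.1% of all genes tested). Relative to the shared macrophage list the median was -0.27, and Tyrobp (-0.31, by a narrow gap), Itgax (-0.39) and Spp1 (-0.53) did not overlap (1.71% of all genes tested). Against the homeostatic list MSC-EVs replicate 3 was still the lowest MSC-EVs library for Trem2, Clec7a, Axl, Itgax, Lgals3 and Spp1, 6 of the 10 genes. Against the shared list it was the lowest for Clec7a and Lgals3, and for Trem2, Tyrobp, Axl, Itgax, Gpnmb, Cst7 and Lpl it was the highest of the 3.

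The third comparison, MSC-EVs against WT, shares its WT libraries with the first and is given for completeness. Again 9 of the 10 were called higher (9% of the 14623 genes tested) and Lpl was not (log2 fold change 0.73, edgeR adjusted p = 0.000307). The median was 3.63. It was 2.9 with Y-linked expression as a covariate, a fit resting mainly on MSC-EVs replicate 3, again with 9 of the 10 called higher. It was 2.88 without both MSC-EVs libraries that carried Y-linked counts, which leaves MSC-EVs replicate 3 alone. The values that follow use all MSC-EVs libraries and no covariate. Cst7 stood at a pooled ratio of 83.5 (95% interval 32.4 to 307) and Itgax at 43.6 (18.5 to 135), followed by Clec7a (log2 fold change 5.16), Gpnmb (4.47), Lgals3 (3.91), Tyrobp (3.35), Trem2 (3.12), Spp1 (2.0) and Axl (1.99). All 10 genes had every MSC-EVs library above every WT library (31.9% of genes tested). The summed level of the 10 genes was 64.0 to 70.1 CPM in WT, 374.3 to 530.6 CPM in NS and 313.9 to 452.1 CPM in MSC-EVs.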

How the data were processed

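RNA of whole retina was sequenced in 3 libraries of each group (WT, rd10 given NS, rd10 given MSC-EVs). For each gene and library the authors deposited the expected count and the FPKM, scaled for length and depth; the submitters' processing notes list fastp, HISAT2, Bowtie2, StringTie 1.3.1 and RSEM without roles, and the build is not given in the sources used here. The deposited expected counts had decimals for 9.16% to 11.7% of genes and were rounded, whereas the design had assumed whole counts. Library totals set the precision: 1 count was worth 0.0155 to 0.05 CPM. In R 4.3.3, edgeR 4.0.16 (filterByExpr, TMM factors, robust quasi-likelihood fit, Benjamini-Hochberg over all genes) was run on each pair of groups; limma 3.58.1 and DESeq2 1.42.0 served as alternatives. CPM used TMM factors over the 9 libraries. The tests were checked on simulated data for NS against WT only, with the same spread set for every gene. The comparisons with MSC-EVs were not checked in this way. Coordinates came from GENCODE M21 by identifier (22232 of 22337 matched).

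The 10 genes and the lists were chosen with earlier results of these data known. The rule for naming covered the 10 genes, the first 4 symbols of each list, the 5 nearest profiles and 5 motifs. Not all of the first 4 symbols are named in the text, and some lists are given by counts or medians only, or not at all. Apart from the genes named for shared sequence, genes outside the rule are marked as chosen later. Intervals on ratios of counts cover counting error only.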

Additional observations from a re-analysis of the deposited data

How the results depend on the processing

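The count of genes called did not cross a factor of 1.5 under any alternative run. Against WT it was 9 in NS and 9 in MSC-EVs, with 10 and 9 under limma on log2(FPKM + 0.1), 9 and 8 under limma on log2(FPKM + 1), and 6 and 6 of 7 tested with at least 10 counts in every library, which leaves out Cst7, Itgax and Clec7a. With single libraries left out, it stayed at 9 in both and at 0 in MSC-EVs against NS. Lpl passed the limit in NS against WT under limma on log2(FPKM + 0.1), at 1.08, and Itgax fell below it in MSC-EVs against WT under limma on log2(FPKM + 1), at 0.96. The reversals among the 10 genes were in MSC-EVs against NS: Clec7a (-0.81) and Axl (-0.36) with the Y-linked covariate, and Clec7a (-0.82) and Axl (-0.37) without both MSC-EVs libraries that carried Y-linked counts, where the cause was not tested. Leaving out each library in turn moved 4 genes across 0 there: Trem2 ranged from -0.32 to 0.037, Clec7a from -0.090 to 0.53, Axl from -0.058 to 0.22 and Lgals3 from -0.49 to 0.28. Of the other named genes in NS against WT, which lay close to 0, Glul turned to 0.0026 with upper-quartile factors, to 0.13 and 0.13 under limma with log2(FPKM + 1) and log2(FPKM + 0.1), and ranged from -0.15 to 0.12 without each library in turn; Lmf1 turned to 0.15 and 0.18 under the same limma fits and ranged from -0.12 to 0.035, and Cd36 ranged from -0.14 to 0.14. The counts of genes called in the surrounding lists moved by over 1.5 times in 42 of their alternatives in NS against WT, 7 in MSC-EVs against NS and 49 in MSC-EVs against WT, and stayed within it in 332, 411 and 369; of the named genes in NS against WT, 34 values lost and 17 gained a call, and 1162 kept theirs.

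Same-numbered NS and MSC-EVs libraries deviated together with correlations of 0.0971, 0.165 and 0.256, those of WT and NS with 0.0244, -0.044 and -0.0534, and those of WT and MSC-EVs with 0.0943, 0.0371 and 0.0291, so the numbers were not taken to pair the samples, although every NS library correlated best with its own number in MSC-EVs. NS and MSC-EVs libraries of different numbers had correlations from -0.178 to 0.00834, so whether these groups are paired remains unsettled. With the replicate number as a block, 9, 0 and 9 of the 10 genes were called in NS against WT, MSC-EVs against NS and MSC-EVs against WT. Over all genes it was 1861, 21 and 1790 in place of 1863, 9 and 1784. In MSC-EVs against NS the block gave 2 of the 10 an unadjusted p under 0.05 (3378 of 14765 genes tested). The smallest edgeR adjusted p of the 10 was then 0.107, in place of 0.322. Between the rd10 groups the count over all genes moved from 0 (without MSC-EVs replicate 1, or NS replicate 3) to 82 without MSC-EVs replicate 2, and it was 25 with DESeq2, 52 with edgeR's exact test, 38 with all 9 libraries in one fit, 29 with the Y-linked covariate and 85 without both libraries with Y-linked counts. In WT, Cst7 and Itgax had at most 3 counts per library, which limits the precision of their folds.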
